A study of Mus musculus with 6 samples.

Results

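In NIH3T3 cells, a mouse fibroblast line, 10 genes of the insulin-like growth factor 1 (IGF1) axis were described: the ligand gene Igf1, the receptor gene Igf1r, the adapter genes Irs1 and Irs2, the protease gene Pappa and the binding protein genes Igfbp2, Igfbp4, Igfbp5, Igfbp6 and Igfbp7. They were taken from a list of names, chosen with earlier results of these data known, and make up 10 of the 55401 genes counted in each library. All 10 matched 1 Ensembl identifier each. The 6 libraries of polyA-selected RNA fell into 3 groups. EV cells carried an empty vector and received the vehicle DMSO (2 libraries). TC cells carried TAZ-CAMTA1 (TC), the fusion of the co-activator TAZ with CAMTA1 found in the vascular sarcoma epithelioid hemangioendothelioma, and received DMSO (1 library). TC + ATA cells carried the same fusion and received aurintricarboxylic acid (ATA) at 10 μM, a compound studied as a disruptor of the binding of TAZ to TEAD transcription factors (3 libraries). Every culture was seeded for 16 h and then kept in DMSO or ATA for 48 h. Whether the TC cells were a pool or a single clone is not given in the sources used here, and EV cells with ATA were not analysed here.

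IGF1 is a secreted growth factor that activates the IGF1 receptor, a tyrosine kinase at the cell surface. The receptor phosphorylates the adapters IRS1 and IRS2, which recruit PI3K and thereby activate AKT, and AKT holds FOXO transcription factors outside the nucleus. Outside the cell, IGF binding proteins hold most IGF and limit its access to the receptor, and PAPP-A, the product of Pappa, cleaves IGFBP4 and IGFBP5 to free it. IGFBP6 prefers IGF2, whereas IGFBP7 binds IGFs weakly and insulin more tightly. Fibroblasts are a known source of IGF1 and of several of these binding proteins in connective tissue.

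The stretches of promoter shown here carry letter matches to CATTCC, the core recognised by TEAD factors, or to TGANTCA. The latter is a loose form of the AP-1 motif, in which N is any base. They were taken from RefSeq windows (GRCm38.p6) that run from 250 bases before to 50 bases after a transcription start, and 9 of the 10 genes had such a window (10 windows, since Igfbp2 had 2). Each is written 5′ to 3′ on the strand of its gene, with the match in capitals.
Igfbp5 promoter, chr1:72875081-72875110 (minus strand), CATTCC starting at -233: gccctttccgtaCATTCCgtgaggaggagg
Irs1 promoter, chr1:82291623-82291652 (minus strand), reverse complement of CATTCC at -201: cgggctcggcccGGAATGtagagcgagcag
Igfbp2 promoter, chr1:72825337-72825366 (plus strand), TGANTCA at -39: gaaacaaaactTGAGTCAgtgaccaccggt
Igf1 promoter, chr10:87861063-87861092 (plus strand), TGANTCA at -37: gagctggaactTGAATCActattctggata

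Both motifs were searched on both strands, and they do not overlap in these 4 stretches. CATTCC matched 14.7% of all 32851 RefSeq mouse windows of this length, and TGANTCA matched 7.81%. The promoters of Irs1 and Irs2 also shared a pair of motifs that were looked for after their sequences had been read: CACGTG, the E-box, and TGTTTTG, the core of the insulin response element that FOXO factors recognise. CACGTG alone matched 7.15% of all windows, TGTTTTG alone 6.28%, and 134 of the 32851 windows (0.408%) held both. They are shown because the 2 adapter genes were called in opposite directions in TC + ATA against EV, and a match is a description of letters only. In Irs1 the last bases of CACGTG are the first of the TGTTTTG at -111, and TGTTTTG matched again at -32. CACGTG also matched at -142 in a window of Igfbp2.
Irs1 promoter, chr1:82291537-82291566 (minus strand), CACGTG at -115: cagaggctccgtCACGTGttttgctcctct
Irs2 promoter, chr8:11008956-11008985 (minus strand), CACGTG at -44: gtaacgcagagtCACGTGttgttttgctct

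On GRCm38, Igf1 (ENSMUSG00000020053) lies at chr10:87858265-87937042, Igf1r (ENSMUSG00000005533) at chr7:67952827-68233668, and Pappa (ENSMUSG00000028370) at chr4:65124174-65357509, all on the plus strand. Irs1 (ENSMUSG00000055980) lies at chr1:82233101-82291416 and Irs2 (ENSMUSG00000038894) at chr8:10984681-11008458, both on the minus strand. Igfbp2 (ENSMUSG00000039323, chr1:72824503-72852474, plus strand) and Igfbp5 (ENSMUSG00000026185, chr1:72857932-72874884, minus strand) are neighbours whose ends face each other across 5457 bases. Igfbp4 (ENSMUSG00000017493) lies at chr11:99041244-99054392 and Igfbp6 (ENSMUSG00000023046) at chr15:102144362-102149511, both on the plus strand, and Igfbp7 (ENSMUSG00000036256) at chr5:77349240-77408041 on the minus strand. Counts were summed over exons.

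The libraries held 58471484 to 74413193 counts in genes (median 71053010). The EV pair differed more (chi-square per degree of freedom 60.6) than the TC + ATA pairs did (5.90 to 6.58), so calls of the 10 genes that depended on 1 EV library are named beside them. Nothing in the sources used here says that the libraries of a group came from separate cultures, so p-values measure only the spread between these samples. All 10 fibroblast markers averaged at least 1 CPM (summed level 14727 to 19399 CPM), but 4 of them were called lower in TC than in EV (Dcn, Thy1, Pdgfra and Fn1) and 2 higher (Vim and Col1a1), and 3 lower and 5 higher in TC + ATA than in EV. The part of these marker changes in the results was not tested. Summed epithelial, endothelial, blood and adipocyte markers stayed at or below 9.14 CPM in every library, whereas the skeletal muscle list summed to 244 to 502 CPM through Acta1 and Ckm, with Myod1 at or below 1.18 CPM and Myog at or below 0.212 CPM. In bulk RNA, fewer cells of a type and less RNA per cell cannot be told apart.

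Levels below are CPM (counts scaled to a common library total) after TMM scaling, given in the order EV 1 and 2, TC, and TC + ATA 1 to 3. Fold changes are log2 estimates with standard errors (SE) from edgeR's quasi-likelihood fit of all 6 libraries. A gene was called at a Benjamini-Hochberg adjusted p of at most 0.05 over the 18539 genes tested. In that fit the single TC library is taken to vary as the other groups do. TC and TC + ATA were each compared with the same EV libraries, so these comparisons are not independent of each other.

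With TC, transcripts of the ligand gene Igf1 and the protease gene Pappa were lower and those of the most abundant binding proteins were higher. Of the 10 genes, 3 were called higher (Igf1r, Igfbp6, Igfbp7) and 3 lower (Igf1, Pappa, Irs1) in TC than in EV, against a background of 28% of all genes called, 14.8% higher and 13.2% lower. Because the 10 genes were chosen with earlier results of these data known, their shares beside the background are descriptions only. In TC + ATA against EV all 10 were called, 5 higher and 5 lower, against a background of 36.6%, 18% higher and 18.6% lower. The EV and TC + ATA libraries did not overlap for any of the 10, which held for 58.8% of all genes. TC and EV did not overlap for 9 of the 10, all but Igfbp2, which held for 78.9% of all genes. Between TC + ATA and TC, 1 of the 10 was called, Igfbp7, against a background of 0.583% (0.426% higher and 0.156% lower). At an unadjusted p under 0.05, 6 of the 10 passed in that comparison, against 9.61% of all genes, and the libraries did not overlap for 8 of the 10, which held for 63.2% of all genes. With an absolute log2 fold change of at least 2 also required, Igf1 and Pappa passed in TC (background 3.64%), Pappa passed in TC + ATA against EV (background 3.87%), and none passed between TC + ATA and TC (background 0.0539%).

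**Figure D1:**
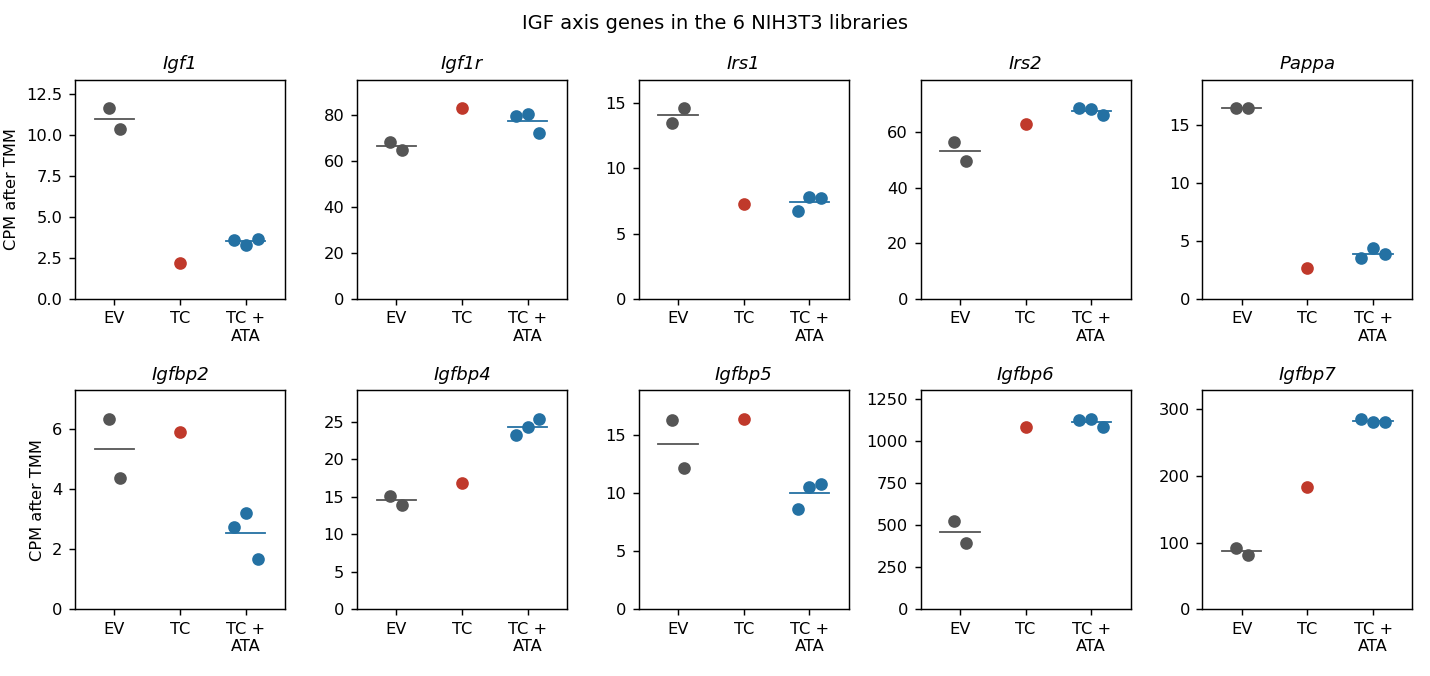
CPM after TMM scaling (linear axis, scaled for each gene) of the 10 genes, one point per library, for EV (2), TC (1) and TC + ATA (3). Igf1, Pappa and Irs1 lay lower, and Igfbp6 and Igfbp7 higher, in all 4 TC-expressing libraries than in either EV library.

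The ligand gene Igf1 stood at 11.6 and 10.3 CPM in EV, 2.18 in TC and 3.57, 3.29 and 3.64 in TC + ATA. The TC library was the lowest, and every TC + ATA library lay between it and EV. Igf1 was 5.04-fold lower in TC than in EV (log2 fold change -2.33, SE 0.18, edgeR adjusted p = 2.30e-05) and 3.13-fold lower in TC + ATA than in EV (-1.65, SE 0.12, adjusted p = 8.46e-06). Between TC + ATA and TC the estimate was 0.68 (SE 0.17, 95% interval 0.30 to 1.07) and was not called after adjustment (edgeR adjusted p = 0.161). It was called when either EV library was left out (adjusted p = 0.0333 without EV 1 and 0.0284 without EV 2), where 7.98% and 7.72% of all genes were called.

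The other ligand genes had few or no counts. Ins1 and Ins2, the insulin genes, had 0 counts in every library. Igf2, the second IGF ligand, had 4 and 2 counts in EV, 10 in TC and 6, 4 and 13 in TC + ATA. These counts are too few to compare at this depth. Of the 5723 exonic bases of Igf2, 3596 are shared with Gm49394, a gene model on the same strand that had 0 counts. Whether this overlap lowered the Igf2 counts was not tested.

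Igf1r, the IGF1 receptor, was at 68.2 and 64.6 CPM in EV, 82.9 in TC and 79.5, 80.5 and 72.1 in TC + ATA. All 4 TC-expressing libraries lay above both EV libraries. The changes were small, 0.32 on the log2 scale in TC (SE 0.09, edgeR adjusted p = 0.0297) and 0.22 in TC + ATA (SE 0.07, adjusted p = 0.0357). Both calls depended on the analysis: with scaling by library size alone the adjusted p values were 0.103 and 0.144. Leaving out TC + ATA 1 or 2 ended them as well, at 0.0655 and 0.0675 for TC and at 0.129 and 0.153 for TC + ATA. The call in TC also ended when only EV and TC entered the fit (adjusted p = 0.192). TC + ATA and TC differed by -0.10 (95% interval -0.30 to 0.10, adjusted p = 0.779).

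The related receptors were not called. Insr, the insulin receptor, was at 25.9 and 27.7 CPM in EV, 30.8 in TC and 30.3 in each TC + ATA library. Igf2r, which carries IGF2 to lysosomes, was at 240 and 223 CPM in EV, 199 in TC and 197 to 210 in TC + ATA (edgeR adjusted p = 0.0980 and 0.0590 against EV). Without EV 2 both genes passed the threshold in both comparisons, and Igf2r also did without EV 1 or with scaling by library size alone.

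The 2 adapter genes were called in opposite directions in TC + ATA against EV, Irs1 lower and Irs2 higher. Irs1 was at 13.5 and 14.6 CPM in EV, 7.28 in TC and 6.70, 7.83 and 7.72 in TC + ATA. The TC-expressing libraries overlapped one another and all lay below EV. Irs1 was 1.93-fold lower in TC (-0.95, SE 0.15, edgeR adjusted p = 0.00135), changed by -0.92 in TC + ATA (SE 0.10, adjusted p = 0.000146), and differed by 0.03 between TC + ATA and TC (95% interval -0.28 to 0.34). Of its 9144 exonic bases, 2822 are shared with Gm9747 on the opposite strand, which had 0 counts. Strand use in counting is not given in the sources used here, and whether this overlap lowered the Irs1 counts was not tested.

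Irs2 was at 56.5 and 49.5 CPM in EV, 62.7 in TC and 68.5, 68.2 and 66.1 in TC + ATA. All TC-expressing libraries lay above EV. It was called higher in TC + ATA (0.35, SE 0.07, edgeR adjusted p = 0.00475) and not in TC (0.24, SE 0.10, adjusted p = 0.0912), although the call in TC was made without EV 1 (0.33, adjusted p = 0.00103). TC + ATA and TC differed by 0.11 (95% interval -0.10 to 0.31).

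**Figure D2:**
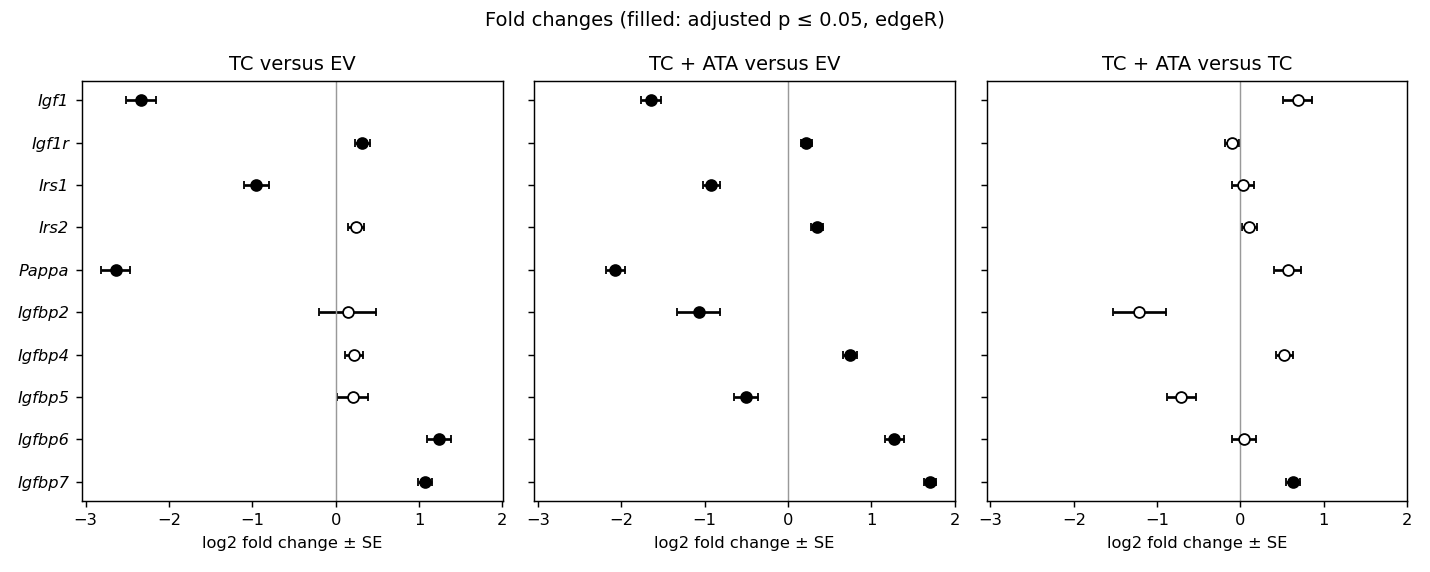
Log2 fold changes of the 10 genes in TC against EV, TC + ATA against EV and TC + ATA against TC, with standard errors from the edgeR fit as bars. Igf1 (-2.33) and Pappa (-2.64) had the largest changes in TC. The 95% intervals, which are not drawn, of Igfbp6 (-0.29 to 0.36), Irs1 (-0.28 to 0.34), Igf1r and Irs2 included 0 between TC + ATA and TC.

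Pappa encodes the protease that cleaves IGFBP4 and IGFBP5. It was at 16.4 CPM in both EV libraries, 2.64 in TC and 3.54, 4.34 and 3.82 in TC + ATA. The 4 TC-expressing libraries were far below EV, with TC the lowest. Pappa was 6.23-fold lower in TC (-2.64, SE 0.18, edgeR adjusted p = 9.11e-06), the largest change among the 10 genes, and 4.20-fold lower in TC + ATA (-2.07, SE 0.11, adjusted p = 1.67e-06). The estimate between TC + ATA and TC was 0.57 (95% interval 0.20 to 0.94) and was not called (adjusted p = 0.243).

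Of the 7 listed genes around this protease, 6 were tested. Pappa2, which encodes the homologous protease PAPP-A2, was at 5.99 and 7.30 CPM in EV, 1.50 in TC and 1.07, 1.24 and 1.29 in TC + ATA. It was lower in TC (-2.15, SE 0.25, edgeR adjusted p = 0.000252) and in TC + ATA (-2.46, SE 0.17, adjusted p = 6.93e-06). Stc2 encodes stanniocalcin-2, an inhibitor of PAPP-A, and rose from 22.4 and 23.0 CPM in EV to 52.4 in TC and 44.6, 43.3 and 47.2 in TC + ATA (1.21 and 0.99, adjusted p = 1.43e-05 and 7.36e-06). Pappa and Pappa2 transcripts were thus lower, and those of Stc2 higher, in all 4 TC-expressing libraries than in either EV library.

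Htra1, a serine protease that can cleave binding proteins, was at 8.26 and 6.74 CPM in EV, 18.3 in TC and 10.5, 12.0 and 10.2 in TC + ATA. It was higher than EV in TC (1.29, SE 0.15, edgeR adjusted p = 0.000279) and in TC + ATA (0.54, adjusted p = 0.00739). TC + ATA lay below TC by an estimate of -0.75 that was not called (adjusted p = 0.0671). It was called by DESeq2 (adjusted p = 0.00407) and with only TC + ATA and TC in the fit (edgeR adjusted p = 0.00152). Adam12, Stc1 and Prg2, which encode a metalloprotease, stanniocalcin-1 and a PAPP-A inhibitor, were not called by edgeR with all 6 libraries. Adam12 was at 32.4 to 37.8 CPM. Stc1 had 25 and 45 counts in EV, 35 in TC and 11, 19 and 19 in TC + ATA. For Stc1 every TC + ATA library thus lay below both EV libraries, unlike for Stc2. Prg2 had 4 and 0 counts in EV, 8 in TC and 8, 15 and 7 in TC + ATA. Adam28 had 0 counts in every library.

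Among the binding proteins, Igfbp6 was the most abundant, at 528 and 394 CPM in EV, 1086 in TC and 1127, 1133 and 1085 in TC + ATA. The EV libraries were well below the rest, and TC lay within the TC + ATA range. Igfbp6 was 2.36-fold higher in TC (1.24, SE 0.15, edgeR adjusted p = 0.000292) and 2.42-fold higher in TC + ATA (1.28, SE 0.12, adjusted p = 4.30e-05). TC + ATA and TC differed by 0.04 (95% interval -0.29 to 0.36, adjusted p = 0.967).

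Igfbp7 was at 92.1 and 81.9 CPM in EV, 183 in TC and 286, 281 and 282 in TC + ATA, so that the 3 groups were separate and in that order. It was 2.10-fold higher in TC (1.07, SE 0.09, edgeR adjusted p = 3.22e-05) and 3.25-fold higher in TC + ATA (1.70, SE 0.07, adjusted p = 3.93e-07). It was also 1.55-fold higher in TC + ATA than in TC (0.63, SE 0.09, 95% interval 0.43 to 0.83, adjusted p = 0.0198), and so farther from EV than TC was. That call ended when TC + ATA 1, 2 or 3 was left out (edgeR adjusted p = 0.134, 0.155 and 0.156), while the estimate stayed between 0.62 and 0.63. Of its 1209 exonic bases, 85 are shared with Polr2b on the opposite strand, and strand use in counting is not given in the sources used here.

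Igfbp4, the binding protein most often described as a PAPP-A substrate, was at 15.1 and 13.9 CPM in EV, 16.9 in TC and 23.2, 24.3 and 25.4 in TC + ATA. TC lay just above EV, and the TC + ATA libraries lay above both. Igfbp4 was 1.67-fold higher in TC + ATA than in EV (0.74, SE 0.08, edgeR adjusted p = 0.000132), and the estimate for TC was 0.22 (95% interval -0.03 to 0.46, adjusted p = 0.177). Between TC + ATA and TC it was 0.53 (95% interval 0.29 to 0.76, adjusted p = 0.0808).

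Igfbp2 and Igfbp5, the neighbours on chromosome 1, were both lowest in TC + ATA. Igfbp2 was at 6.34 and 4.37 CPM in EV, 5.91 in TC and 2.75, 3.22 and 1.67 in TC + ATA, with TC inside the EV range. It was 2.11-fold lower in TC + ATA than in EV (-1.07, SE 0.26, edgeR adjusted p = 0.0114), and the estimate for TC against EV was 0.14 (95% interval -0.64 to 0.92). Igfbp5, which binds matrix as well as IGFs, was at 16.3 and 12.2 CPM in EV, 16.4 in TC and 8.64, 10.6 and 10.8 in TC + ATA. It was 1.42-fold lower in TC + ATA than in EV (-0.50, SE 0.14, edgeR adjusted p = 0.0219), and the estimate for TC against EV was 0.21 (95% interval -0.22 to 0.63). The call in TC + ATA was lost without EV 1 (-0.29, adjusted p = 0.0856) or without TC + ATA 1 (-0.41, adjusted p = 0.0758).

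Every TC + ATA library lay below TC for both neighbours, by -1.22 for Igfbp2 (95% interval -1.94 to -0.50, edgeR adjusted p = 0.186) and by -0.71 for Igfbp5 (95% interval -1.11 to -0.31, adjusted p = 0.159). Neither was called by edgeR with the 6 libraries after the filter on low counts. Igfbp2, Igfbp4 and Igfbp5 were all called between TC + ATA and TC by DESeq2, by edgeR without the filter on low counts, by edgeR with only these 2 groups, and by edgeR without EV 1 or without EV 2. Under those settings the background also rose, to 2.23%, 1.23%, 7.93%, 7.98% and 7.72% of genes called.

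**Figure D3:**
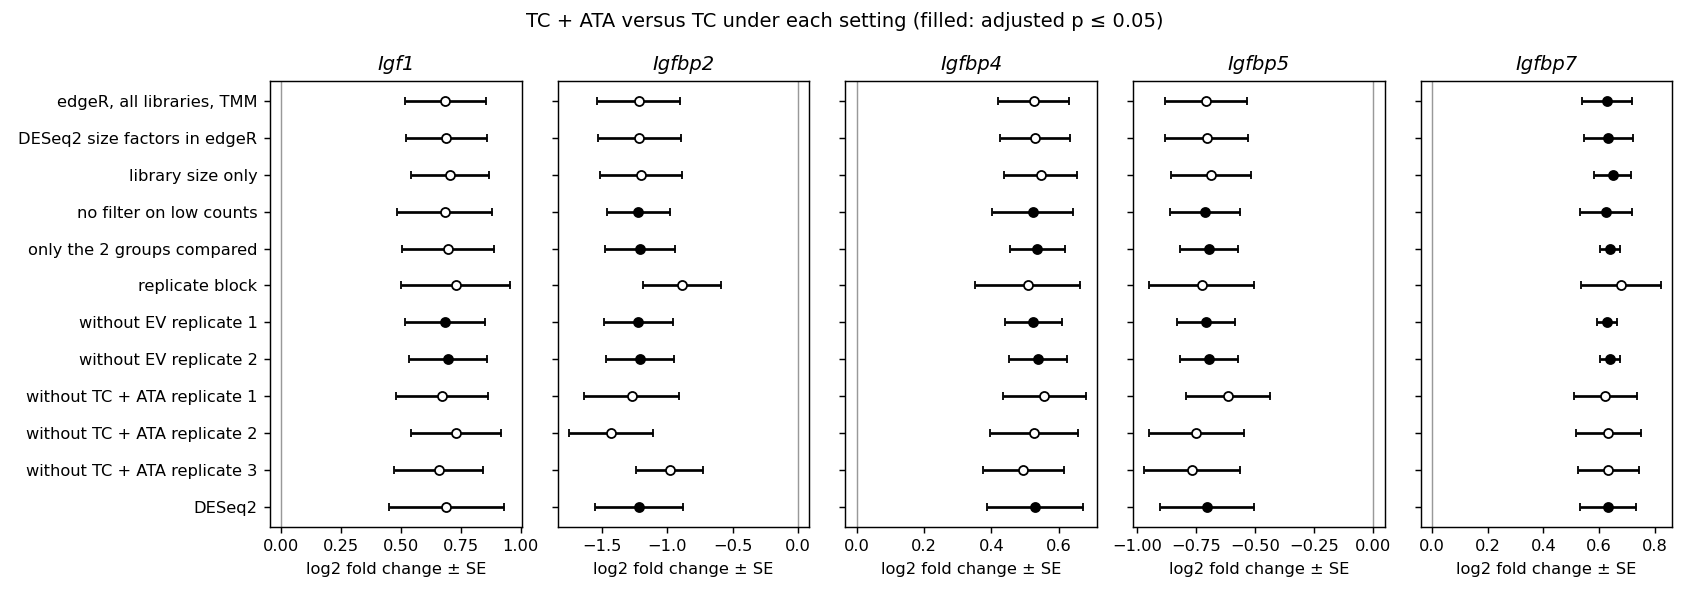
Log2 fold changes of Igf1, Igfbp2, Igfbp4, Igfbp5 and Igfbp7 between TC + ATA and TC under each analysis setting, with filled points where the adjusted p was at most 0.05. The other genes of the 10 are not drawn. The estimates of Igfbp7 hold close to 0.63 while its call is lost under several settings, and those of Igfbp2, Igfbp4 and Igfbp5 are called under some settings.

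The remaining binding protein genes were near or at 0. Igfbp1 had 0 counts in every library. Igfbp3, the main carrier of IGFs in blood, had 10 and 10 counts in EV, 34 in TC and 12, 9 and 4 in TC + ATA. Igfals, which encodes the acid-labile partner in that carrier complex, and Igfbpl1 had at most 8 counts in any library, and Insrr, the orphan receptor of the family, at most 24. Of the 10 listed ligands, receptors and binding proteins, 5 were tested. None was called in any comparison by DESeq2 or by the edgeR fit that gave the fold changes above. At an unadjusted p under 0.05 in that edgeR fit, 2, 2 and 1 passed in TC against EV, TC + ATA against EV and TC + ATA against TC. Insr and Igf2r were called by edgeR under other settings, as given above.

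Between genes, levels were compared per kilobase of exonic length (CPM per kb). In EV, Igfbp6 led at a mean of 414 (354 to 474), followed by Igfbp7 at 72.0, Irs2 at 8.38 and Igf1r at 3.95. Igfbp4 (3.29), Igfbp2 (2.90) and Igfbp5 (2.37) followed, each overlapping its neighbour in the order. Irs1 (1.54) and Pappa (1.49) overlapped as well, and Igf1 was the lowest at 1.11. In TC the first places were the same, at 977 for Igfbp6 and 151 for Igfbp7, and Igf1 (0.220) and Pappa (0.239) were last. In TC + ATA, Igfbp4 (5.50) stood above Igf1r (4.61), Igfbp5 (1.67) and Igfbp2 (1.38) overlapped, and Pappa (0.354) and Igf1 (0.353) overlapped.

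**Figure D4:**
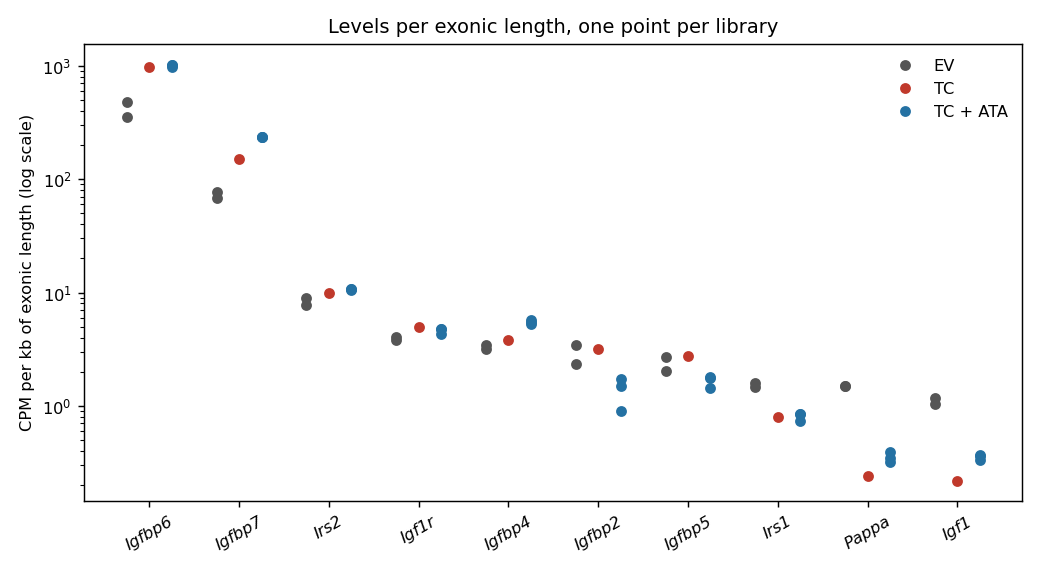
CPM per kb of exonic length (log axis) of the 10 genes, one point per library, coloured by group. Igfbp6 and Igfbp7 lie above every other gene in every library, and Igf1 and Pappa are the lowest in all TC-expressing libraries.

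Summed over the 5 binding protein genes, the level was 560 and 429 CPM per kb in EV, 1138 in TC and 1258, 1261 and 1217 in TC + ATA. Igfbp6 made up 84.7% and 82.5% of the sum in EV, 85.8% in TC and 80.6%, 80.8% and 80.2% in TC + ATA. Igfbp7 made up 13.6% and 15.8% in EV, 13.3% in TC and 18.8%, 18.5% and 19.1% in TC + ATA. The sum was 478 and 412 times the level of Igf1 in EV, 5180 times in TC and 3489, 3800 and 3313 times in TC + ATA. These are ratios of transcripts per length, not of proteins.

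Downstream, 44 of 46 listed adapter and PI3K-AKT-mTOR genes were tested, and their median change lay near 0 (-0.05 in TC and -0.09 in TC + ATA against EV, beside -0.03 and -0.01 over all genes). In TC, 7 were called higher and 13 lower, and in TC + ATA 8 higher and 15 lower, beside 14.8% higher and 13.2% lower of all genes in TC and 18% and 18.6% in TC + ATA. Grb14, an adapter that inhibits insulin receptor signalling, fell from 86.7 and 79.2 CPM in EV to 24.3 in TC and 17.3, 18.0 and 17.3 in TC + ATA (-1.77 and -2.24, edgeR adjusted p = 3.45e-06 and 1.07e-07). Pik3r3, a regulatory subunit of PI3K, was lower in TC (-1.76, adjusted p = 1.80e-05). Deptor, an inhibitor of mTOR, was higher in TC (1.21) and in TC + ATA (1.54, adjusted p = 9.09e-06). Shc2, an adapter, changed by -1.63 and -1.60, and Foxo6, a FOXO factor at or below 1.99 CPM, by -1.43 (adjusted p = 0.0299) and -1.33. The Foxo6 call in TC ended without TC + ATA 2 (adjusted p = 0.0547). Between TC + ATA and TC, edgeR called none of the 44 (6 at an unadjusted p under 0.05), and DESeq2 called 2, Grb14 and Pik3r3.

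Of 11 genes known to be induced by FOXO factors, 7 were lower and none higher in TC than in EV, with a median of -1.12, beside 13.2% of all genes lower and a median of -0.03. The same numbers were called in TC + ATA, with a median of -0.56, beside 18.6% of all genes lower and a median of -0.01. The largest changes were in Cited2, a transcriptional co-regulator (-1.77 and -1.35), and Sesn3, a stress-induced sestrin (-1.64 and -1.72), with Sesn1 at -1.12 and -0.92. Txnip, which limits glucose uptake, was at 62.1 and 63.4 CPM in EV, 23.4 in TC and 38.9, 37.8 and 39.0 in TC + ATA. Pdk4, a kinase that inhibits pyruvate dehydrogenase, was at 111 and 117 CPM in EV, 45.3 in TC and 70.3, 68.9 and 68.2 in TC + ATA. These were the only 2 of the listed genes called between TC + ATA and TC (0.72, SE 0.08, edgeR adjusted p = 0.00759 for Txnip and 0.61, SE 0.08, adjusted p = 0.0132 for Pdk4), and each TC + ATA library lay between TC and EV. Both calls ended when any TC + ATA library was left out (adjusted p from 0.0523 to 0.0815 for Txnip and from 0.0927 to 0.115 for Pdk4).

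In growth hormone signalling, which induces Igf1 in many tissues, 6 of 7 genes were tested. None was called higher, 4 were lower in TC and 2 in TC + ATA, beside 13.2% and 18.6% of all genes. Ghr, the growth hormone receptor, was at 79.4 and 83.4 CPM in EV, 16.8 in TC and 24.0, 22.5 and 21.5 in TC + ATA. It was lower in TC (-2.27, SE 0.11, edgeR adjusted p = 1.33e-06) and in TC + ATA (-1.84, SE 0.07, adjusted p = 2.27e-07). Stat5a, a transcription factor activated by this receptor, was lower in TC (-0.66, adjusted p = 0.00916), as was the receptor's kinase gene Jak2 (-0.33, adjusted p = 0.0432). The Jak2 call ended without any one of the TC + ATA libraries, with only EV and TC in the fit (adjusted p = 0.193), and by DESeq2 (adjusted p = 0.0539). Of the genes for the IGF2 mRNA binding proteins, Igf2bp1 was higher in TC (0.87, adjusted p = 0.000135) and TC + ATA (0.64), and Igf2bp2 was called in TC + ATA (0.23, adjusted p = 0.0228) but not when any TC + ATA library was left out or with scaling by library size alone (adjusted p = 0.168).

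**Figure D5:**
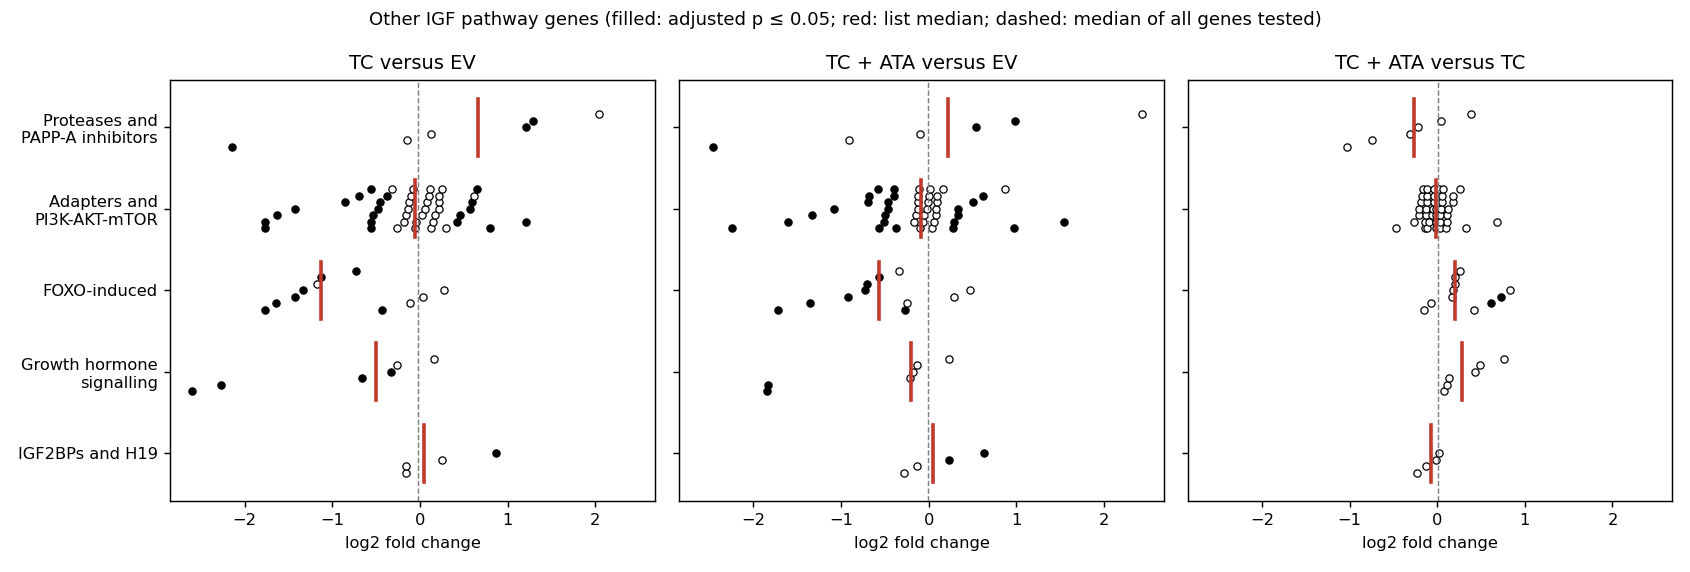
Log2 fold changes of the tested genes in each listed group around the axis, one point per gene, for the 3 comparisons, with the median of each list. The FOXO-induced list has medians of -1.12 in TC and -0.56 in TC + ATA against EV, and the adapter and PI3K-AKT-mTOR list has medians near 0.

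The patterns of Igf1 and Pappa across the 6 libraries were compared with those of 10414 other genes by the root mean square difference of log2(CPM + 1), each gene centred on its own mean. Nearest to Igf1 were Cited2 (difference 0.0622), Sulf2 (0.0645), which encodes an extracellular sulfatase, and Col6a2 (0.0827), a collagen VI chain. Nearest to Pappa were Kcna4 (0.0596), a potassium channel gene, Rnf150 (0.0744) and Vdr (0.0837), the vitamin D receptor gene. With 3 groups and 6 libraries, any gene with a like step between groups is near.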

How the data were processed

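Total RNA was polyA-selected and sequenced in pairs of reads by the authors, who aligned reads to the mouse genome (GRCm38.p6, mm10) with HISAT2 (version 2.2.1 per the submitters' processing notes) and assigned them to genes with featureCounts. What they deposited are raw counts without normalization. The annotation release and strand setting are not given in the sources used here. Of 55401 gene identifiers, 55141 matched a GENCODE M21 symbol. Exonic lengths are the union of that annotation's exons.

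The counts of all 6 libraries were fitted with edgeR 4.0.16 (limma 3.58.1, R 4.3.3): filterByExpr, TMM, quasi-likelihood F test with group as the only term, 3 residual degrees of freedom, and Benjamini-Hochberg adjustment over 18539 genes. SEs derive from the F statistic and intervals are 95%. DESeq2 1.42.0 was an alternative, beside other scaling, no filter, only the 2 groups compared, the replicate number as a block, a further limit on fold size (2 in log2 units), and leaving out each replicate. TC has 1 library and could not be left out, and fits with 1 EV library take it to vary as the other groups do. On simulated counts for TC against EV (17837 genes), 47 of 94 genes changed by 1 on the log2 scale (50%) and 82 of 106 changed by 2 (77.4%) were called. Far fewer genes were changed in that simulation than were called in these data. All its groups were also given the same spread, so its shares of calls need not hold here.

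The 10 genes, the lists and the settings were chosen with earlier results of these data known. Besides the 10, the text names every gene of the ligand, receptor and binding protein list and of the protease list, and from each other list at most 4 called genes per comparison, those with the largest absolute log2 fold change at a mean of at least 1 CPM. It also names the 3 genes of at least 5 CPM nearest in pattern to Igf1 and to Pappa. Promoter windows came from RefSeq (GRCm38.p6), and the E-box and insulin response element were chosen after the sequences were read.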

Additional observations from a re-analysis of the deposited data

How the results depend on the processing

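Of 330 refitted log2 fold changes of the 10 genes, 294 kept their direction and their side of the threshold, 15 lost a call, 18 gained one and 3 changed sign. For the other named genes these were 769, 22, 50 and 11 of 852. With an absolute log2 fold change of at least 2 also required, 2 of the 10 genes were called in TC against EV, 1 in TC + ATA against EV and 0 between TC + ATA and TC, and 3, 2 and 0 of the listed genes (from 35, 37 and 2).

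Between TC + ATA and TC, where edgeR called 1 of the 10 genes (6 at an unadjusted p under 0.05) and 2 listed genes, the counts were 4 and 7 without the filter, 4 and 10 with only these 2 groups, and 4 and 7 by DESeq2. Leaving out 1 replicate gave 0 to 5 and 0 to 11: every TC + ATA library left out gave 0 of the 10 genes (0.0545% to 0.217% of all genes called), and either EV library left out gave 5 (7.98% without EV 1 and 7.72% without EV 2, from 0.583%). Without either EV library, the other named genes that gained a call there were Htra1, Grb14, Pik3r3, Cited2, Ghr, Stat5a and Igf2bp1. Against EV, without EV 1, Adam12 gained one in both comparisons and Prg2 and Jak2 in TC + ATA, and without either EV library Igf2bp2 gained one in TC. The same omissions gave 5 to 7 of the 10 genes in TC against EV and 8 to 10 in TC + ATA against EV (22.2% to 40.5% and 27.3% to 46.1% of all genes called), and 31 to 47 and 32 to 48 listed genes. The causes were not tested.

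Deviations of same-numbered EV and TC + ATA libraries had correlations near 0 (-0.0290 and -0.0861). The EV libraries are so few that their deviations from their own mean mirror each other. These correlations therefore cannot decide whether the numbers pair samples. With the replicate block, 0 of the 10 genes and 0 listed genes were called between TC + ATA and TC. Under that block, of the 10 genes, Igf1r lost its calls against EV (adjusted p = 0.148 in TC and 0.0758 in TC + ATA) and Igfbp7 its call between TC + ATA and TC (0.68, adjusted p = 0.145). Other named genes that lost a call were Foxo6, Jak2 and Stat5a in TC and Igf2bp2 in TC + ATA against EV, and Txnip and Pdk4 between TC + ATA and TC.

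Sign changes all fell on values that were not called. With the replicate block they were Irs1 (-0.088), Insrr (-3.08), Adam12 (-0.027) and Shc2 (-0.067) between TC + ATA and TC, and Igfbp3 (0.31) in TC + ATA against EV. Leaving out 1 replicate, the ranges that crossed 0 were, between TC + ATA and TC, -0.010 to 0.097 for Irs1, -0.84 to 0.035 for Igf2, -0.35 to 0.90 for Insrr, -0.029 to 0.067 for Shc2 and -0.094 to 0.29 for Foxo6. They were -0.51 to 0.33 for Igfbp3 in TC + ATA against EV, and -0.10 to 0.42 for Igfbp2 and -0.24 to 0.59 for Stc1 in TC against EV. With library size scaling, Igf2bp2 turned between TC + ATA and TC (0.00096), and the median of all genes moved from -0.03 to -0.13 in TC and from -0.01 to -0.10 in TC + ATA against EV.

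The single TC library limits both comparisons that use it. Counts of a few reads (Igf2, Igfbp3, Insrr) limit precision at this depth.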
